A study of Bos taurus with 27 samples.

Results

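Transcripts of 10 genes that make, bind or respond to retinoic acid were examined in 27 pools of bovine blastocysts. The genes were DHRS9, DHRS3, RDH10, RDH11, ALDH1A3, CRABP2, RARA, RARB, RARG and RXRA, taken by symbol from the 32637 genes of the count table. All 10 symbols were present. DHRS9 had been singled out earlier from its values over these same pools, in part for its relation to Y-linked transcripts, and the others were grouped with it by function. Its spread, its relation to Y-linked transcripts and its likeness to other genes are therefore descriptions.

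Retinoic acid is made from vitamin A in consecutive oxidations, from retinol to retinal and from retinal to retinoic acid. The first is reversible and is carried out by dehydrogenases and reductases of the short-chain and alcohol dehydrogenase families, and the next is irreversible and is carried out by retinal dehydrogenases. Retinoic acid is bound in the cytoplasm by small carrier proteins, is cleared by CYP26 enzymes, and acts in the nucleus through retinoic acid receptors paired with retinoid X receptors. In embryos it is known for patterning the body axis and for steering differentiation, and the blastocyst stage comes before that patterning.

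Cattle oocytes were matured in vitro in medium containing fluid of preovulatory follicles that were of either greater or lesser maturity, and all were then fertilized and cultured alike. Each pool held RNA from 2 expanding or expanded embryos (stage score 7, quality score 1), which at that stage contain trophectoderm, epiblast and hypoblast. The labels did not place a pool in a follicle maturity treatment or an IVF replicate, so no treatments were compared, the pools are described as 1 set, and any effect of treatment or replicate is part of the spread among pools. Nothing in the labels states which pools shared an IVF replicate or parents. The p-values come from permuting pools, treat them as interchangeable and apply only to these pools. The study drew these blastocysts from fewer IVF replicates and treatments than there are pools, and used semen of the same bull. Some pools therefore shared a replicate and a treatment, so they are not fully interchangeable and the p-values may be too small.

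Pools were sequenced to total counts of 10517606 to 44253564 (median 22293594), and no pair of pools held identical columns. Abundance is given as CPM, the counts of a gene per 1e6 counts of its pool, and the 3-count detection floor was between 0.0678 and 0.285 CPM, which covers counting error only. A gene was retained when it reached 1 CPM in at least 12 pools, as 12310 genes did. In Y-linked transcripts the pools formed separate clusters, with summed values of 0.430 to 1.65 CPM in 9 pools and 18.9 to 197 CPM in the other 18. All 7 trophectoderm markers were retained, led by KRT8 with 69.6% of their summed abundance. Epiblast markers were led by NANOG and hypoblast markers by GATA6, with 3 markers of each list retained. The epiblast markers FGF4 and NODAL had no counts in 17 and 26 pools. The hypoblast markers SOX17 and FOXA2 had none in 14 and 19 pools.

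Of the 10 retinoid genes, 8 were retained and CRABP2 and RARG were not. Reads were taken near the 3′ end of transcripts, and transcript lengths were not used here. The CPM of a gene was therefore compared between pools and not with the CPM of another gene. Because whole embryos were used, fewer cells of a type and less RNA per cell cannot be told apart. Positions are those of the RefSeq annotation of ARS-UCD2.0, the assembly to which the authors mapped the reads.

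DHRS9 encodes a short-chain dehydrogenase that can oxidize retinol to retinal, and it lies on chromosome 2 from 27068147 to 27092072. Its abundance was lowest at 1.78 CPM in pool 1, had a median of 10.3 CPM and was highest at 64.6 CPM in pool 9, a 36.2-fold range. The next highest pool, 41, had 39.4 CPM, and the middle 50% of pools were between 6.43 and 20.1 CPM. Pool 9 stood well above the others, and alone held 15.9% of DHRS9 abundance summed over pools. Counts of DHRS9 were between 40 and 938, so that counting error made up 0.428% of its variance.

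RDH10 encodes a membrane-bound enzyme that oxidizes retinol to retinal in embryos, and it lies on chromosome 14 from 36628596 to 36655309. Its abundance was between 0.0326 CPM in pool 31 and 3.53 CPM in pool 14, with a median of 1.15 CPM, and 17 pools reached 1 CPM. The lowest value was 1 count, which is under the detection floor, so no fold is given. RDH10 was thus present near the retention limit in most pools, without a pool far above the others.

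RDH11, which encodes a retinal reductase also able to oxidize retinol, lies on chromosome 10 from 79554703 to 79567318. It was between 198 CPM in pool 35 and 467 CPM in pool 15, with a median of 277 CPM, a 2.36-fold range. Pool 21 was close to the highest, at 456 CPM. This was the narrowest fold range given for these genes, and RDH11 was counted at least 2355 times in every pool.

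DHRS3 encodes the enzyme that reduces retinal back to retinol and so limits retinoic acid synthesis. It lies on chromosome 16 from 41109685 to 41160245 and overlaps the long noncoding RNA gene LOC132342465, which had only 121 counts over all pools. DHRS3 was between 15.2 CPM in pool 41 and 49.3 CPM in pool 1, with a median of 26.2 CPM, a 3.25-fold range. Pool 1, the lowest in DHRS9, was the highest in DHRS3, and pool 41, the next to highest in DHRS9, was the lowest in DHRS3. In pool 9, the highest in DHRS9, DHRS3 was 25.6 CPM, near its median.

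ALDH1A3, one of the retinal dehydrogenases that form retinoic acid, lies on chromosome 21 from 5628648 to 5670915. Its abundance was between 4.21 CPM in pool 32 and 109.7 CPM in pool 9, with a median of 32.6 CPM, a 26.1-fold range. Pool 33 matched pool 9, with 109.6 CPM. The middle 50% of pools were between 24.2 and 52.5 CPM, and the next to lowest pool had 10.3 CPM. Pool 9 was therefore the highest pool in both DHRS9 and ALDH1A3.

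CRABP2, which carries retinoic acid to its nuclear receptors, lies on chromosome 3 from 14125444 to 14130428. It had no counts in 24 pools, and 23 of its 25 counts were in pool 42, at 0.527 CPM. The other counts were in pools 9 and 22, with 0.0688 and 0.0332 CPM. In the other pools the 3-count floor that a count of 0 was read against was 0.285 CPM or less.

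**Figure D1:**
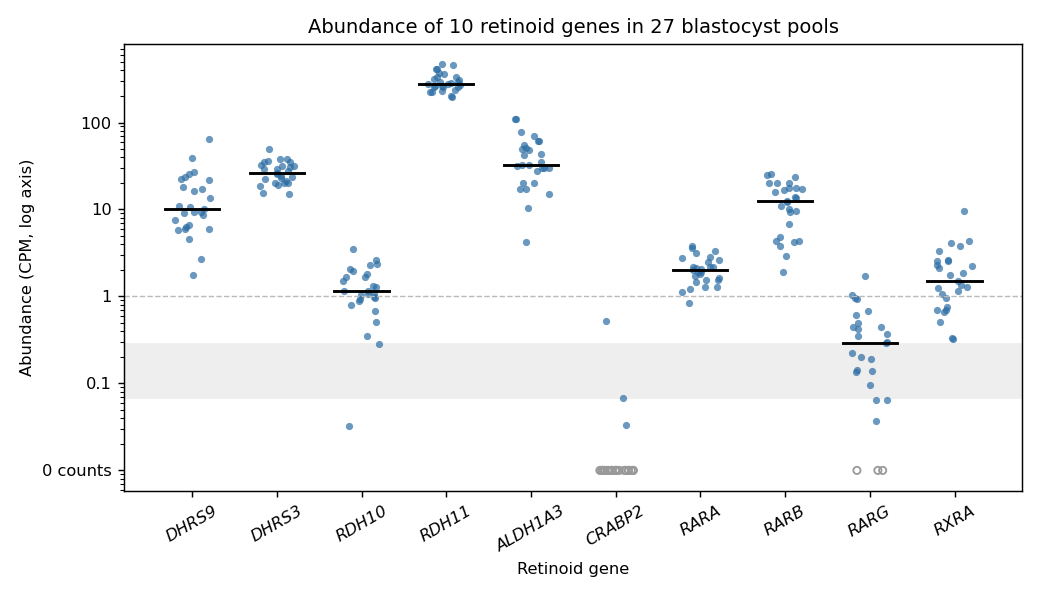
Abundance of the 10 retinoid genes (CPM, log axis) in each of 27 blastocyst pools, with 1 point per pool, a bar at the median, open circles for pools without counts, a dashed line at 1 CPM and a grey band for the range of the 3-count floor. Among the genes with a fold range given, DHRS9, ALDH1A3, RARB and RXRA spread over more than a decade. RDH11 stays between 198 and 467 CPM, and CRABP2 has counts in 3 pools. Heights are not compared between genes.

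RARA, RARB and RARG encode the retinoic acid receptors, ligand-activated transcription factors. RARA lies on chromosome 19 from 40551174 to 40595283, and ranged from 0.849 CPM in pool 14 to 3.82 CPM in pool 32, with a median of 2.00 CPM. It reached 1 CPM in 26 pools, and its 4.50-fold range rested on counts between 19 and 99, with counting error making up 18.1% of the variance. No pool stood apart in RARA.

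RARB lies on chromosome 27 from 40196705 to 40792265 and is itself known to be induced by retinoic acid in many cell types. A long noncoding RNA gene inside its span, LOC132344075, had 1 count in all. RARB was between 1.90 CPM in pool 14 and 25.4 CPM in pool 21, with a median of 12.5 CPM, a 13.3-fold range. The middle 50% of pools were between 5.87 and 17.7 CPM, and pools 13 and 21 were nearly equal at the top, with 24.8 and 25.4 CPM. In pool 9, which was highest in DHRS9 and ALDH1A3, RARB was 4.89 CPM, below its lower quartile.

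RARG lies on chromosome 5 from 26774193 to 26794819. It had no counts in pools 14, 21 and 38, a median of 0.292 CPM and a highest value of 1.73 CPM in pool 45. Only pools 42 and 45 reached 1 CPM, and the 258 counts over all pools leave most of its values near the detection floor.

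RXRA encodes a retinoid X receptor, the partner of the retinoic acid receptors on DNA and of several other nuclear receptors. It lies on chromosome 11 from 105021618 to 105114880. Its abundance was between 0.324 CPM in pool 32 and 9.64 CPM in pool 45, with a median of 1.52 CPM. The next highest pool, 33, had 4.29 CPM, and 19 pools reached 1 CPM. Pool 45 alone held 17.3% of the abundance of RXRA summed over pools, and the 29.8-fold range rested on counts between 5 and 145.

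Among reads on the 3 retinoic acid receptors, RARB held a median of 82.0%, from 35.7% in pool 45 to 94.0% in pool 13. It held the most receptor reads in 26 of 27 pools. RARA held a median of 14.0%, from 4.85% in pool 13 to 43.5% in pool 45, where it held the most. RARG held between 0% and 20.9%, again the highest in pool 45. These are shares of reads rather than of molecules. Pool 45 thus combined the highest RARG and RXRA, the next to highest RARA, and RARB at 2.95 CPM, its next to lowest value. Pool 14 had the lowest RARA and RARB, no counts of RARG and the highest RDH10.

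**Figure D2:**
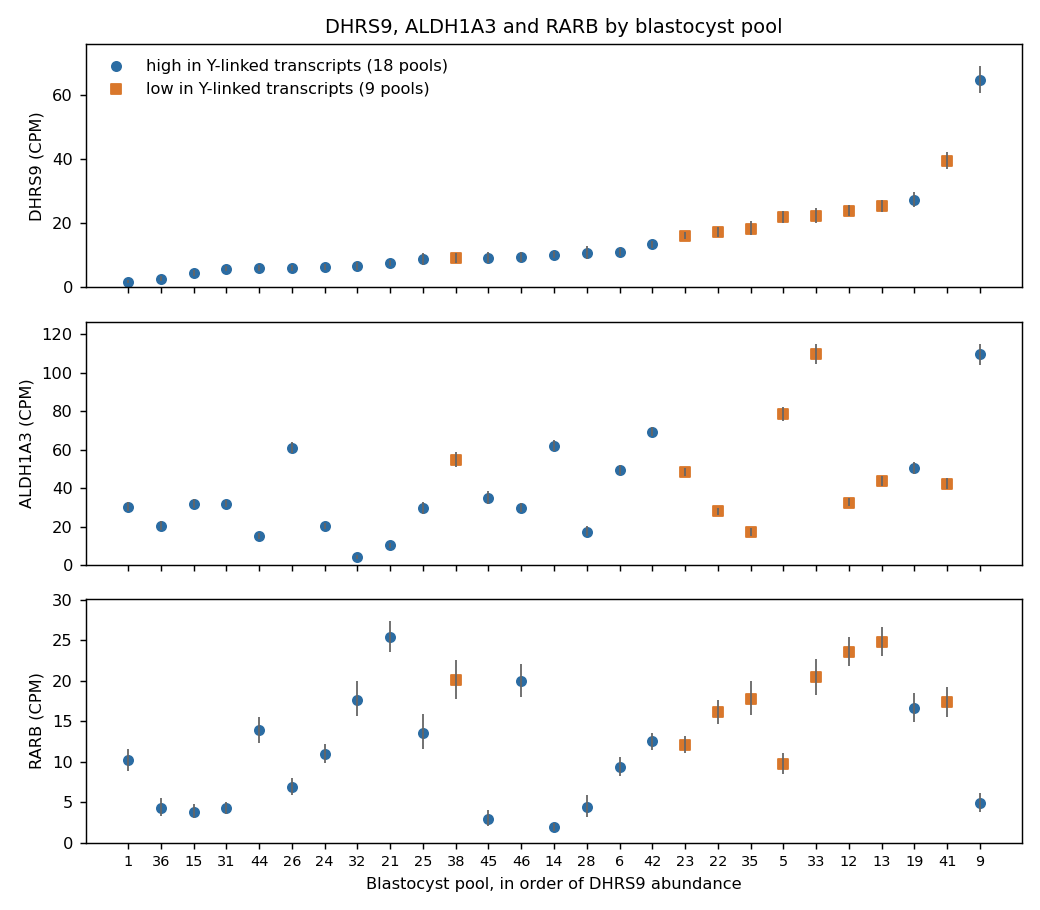
Abundance of DHRS9, ALDH1A3 and RARB (CPM, linear axes from 0) in each of 27 blastocyst pools, ordered by DHRS9, with 95% Poisson intervals for counting error only; squares are the 9 pools low in Y-linked transcripts. DHRS9 climbs from 1.78 to 64.6 CPM, and pool 9 is at the top for DHRS9 and ALDH1A3. RARB follows neither order closely (Spearman's rho of 0.375 with DHRS9 and -0.169 with ALDH1A3).

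The spread among pools beyond counting error was summarised as the biological coefficient of variation of edgeR and set beside the trend for genes of like abundance. DHRS9 had a coefficient of 0.705 against a trend of 0.375, a ratio of 1.88 that was at the 97.9th percentile of retained genes. ALDH1A3 had 0.598 against 0.287, a ratio of 2.08, at the 98.6th percentile. RARB had 0.576 against 0.398, a ratio of 1.45, at the 93.6th percentile. These genes, from the synthesis and the receptor step, varied more than most genes counted as often.

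RARA went the other way, with a coefficient of 0.419 against a trend of 0.713, at the 2.81 percentile of the ratio. RDH11 and RXRA were slightly above their trends, with ratios of 1.12 and 1.04, and DHRS3 and RDH10 were below, with 0.951 and 0.844. Of the 8 retained retinoid genes, 5 were above the trend, whereas 3504 of 12310 retained genes (28.5%) were. The median ratio was 1.08 over the 8 genes and 0.850 over all retained genes. No test was made, because DHRS9 had been chosen from its values.

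**Figure D3:**
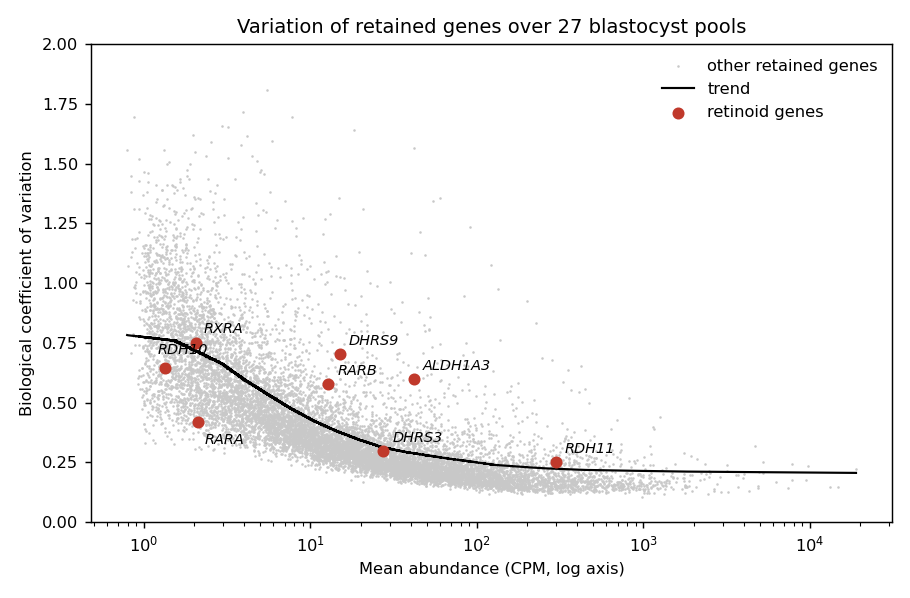
Biological coefficient of variation (no unit) against mean abundance (CPM, log axis) for the 12310 retained genes, with the fitted trend as a line and the 8 retained retinoid genes in red. DHRS9 (0.705), ALDH1A3 (0.598) and RARB (0.576) lie above the trend and RARA (0.419) lies below it.

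Each retained gene was then set against 6 measures of the pool, which were the summed CPM of trophectoderm, epiblast, hypoblast and leukocyte markers, the summed CPM of interferon tau genes, and the total count. Spearman's rho was tested two-sided with 100000 permutations, followed by Benjamini-Hochberg adjustment across all 12310 genes and a call at an adjusted p of 0.05 or less. Of the 48 relations of the 8 retinoid genes, 5 were called and 8 had an unadjusted p of 0.05 or less. Pearson's r was calculated from log2(CPM + 1).

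Interferon tau is the trophectoderm product by which the ruminant embryo signals its presence to the mother. Its summed abundance ran from 7.21 to 589 CPM around a median of 40.9 CPM, and the near-identical genes may share reads. IFNT3 held 98.4% of the sum and was the only 1 of the 3 interferon tau genes retained. Relations to the sum are thus mostly relations to IFNT3. The retinoid genes called with it were 2 of 8, beside 1.45% of all retained genes. ALDH1A3 was higher where interferon tau was higher (rho = 0.681, permutation p = 0.00012, Benjamini-Hochberg adjusted p = 0.0227, n = 27). Pearson's r was 0.679 (permutation p = 0.00012), and 0.610 without the 2 pools farthest from the median.

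DHRS9 was likewise higher in pools with more interferon tau (rho = 0.672, permutation p = 0.00019, Benjamini-Hochberg adjusted p = 0.0296, n = 27). Its Pearson's r was 0.681 (permutation p = 1e-04), and 0.646 without the 2 pools. Within the 18 pools of the high Y-linked cluster, rho was 0.715 for ALDH1A3 and 0.643 for DHRS9 (permutation p = 0.00123 and 0.00503). Within the 9 pools low in them it was 0.417 and 0.167 (exact permutation p = 0.270 and 0.678). Pool 9 was the highest in all 3 measures. Without it neither relation was called, with rho of 0.643 for ALDH1A3 and 0.632 for DHRS9 (adjusted permutation p = 0.0668 and 0.0759). The call of DHRS9 was also lost without pool 15 (rho = 0.650) or 36 (rho = 0.638), and that of ALDH1A3 without pool 32 (rho = 0.650).

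Leukocyte markers stood for another cell type that a pool could hold, and the part of such cells in the values was not tested. Their summed abundance was between 196 and 569 CPM, of which CD48 held 92.8%, and 7 of the 11 markers were retained. The defining marker PTPRC was between 1.01 and 6.75 CPM, and LAPTM5 had no counts in 13 pools. DHRS9 and RARB were called with the sum, 2 of 8 retinoid genes beside 8.61% of all retained genes. DHRS9 had a rho of 0.682 (permutation p = 0.00018, Benjamini-Hochberg adjusted p = 0.0078) and a Pearson's r of 0.637 (permutation p = 0.00031), or 0.689 without the 2 pools.

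RARB had a rho of 0.595 with the same sum (permutation p = 0.00127, Benjamini-Hochberg adjusted p = 0.0237) and an r of 0.638 (permutation p = 0.00033), or 0.508 without the 2 pools. With CD48 taken out of the sum, rho was 0.284 for DHRS9 and 0.282 for RARB and neither was called (adjusted permutation p = 0.604 and 0.607). Both relations to the sum thus rested on CD48. Within the 18 pools of the high Y-linked cluster, rho was 0.377 for DHRS9 and 0.595 for RARB (permutation p = 0.123 and 0.0101). Within the 9 low pools it was 0 and -0.467 (exact permutation p = 1 and 0.213). The call of RARB was lost without pool 31 (rho = 0.556) or 36 (rho = 0.554), and with TMM or DESeq2 scaling (rho = 0.535 and 0.521).

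Trophectoderm markers, which summed to between 15541 and 38753 CPM, were called with 1 of 8 retinoid genes, beside 6.35% of all retained genes. DHRS3 was higher where they were higher (rho = 0.563, permutation p = 0.00253, Benjamini-Hochberg adjusted p = 0.0442, n = 27). Its r was 0.533 (permutation p = 0.00408, adjusted p = 0.0510), which was not called, and 0.386 without the 2 pools, so the relation leaned on them. Within the 9 and the 18 pools, rho was 0.733 (exact permutation p = 0.0311) and 0.424 (permutation p = 0.0808). The call was lost in 19 of 33 alternative settings, 15 of which left out 1 pool (1, 6, 12, 13, 14, 21, 22, 23, 25, 26, 28, 31, 41, 44 or 45), with rho at its lowest, 0.512, without pool 12 (adjusted permutation p = 0.103). RARB had a rho of -0.551 with these markers and was not called (permutation p = 0.0032, adjusted p = 0.0501), whereas its r of -0.588 was (adjusted permutation p = 0.0265). The gene called with these markers thus switched from DHRS3 to RARB with the kind of correlation.

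With epiblast markers none of the 8 retinoid genes was called, beside 0.0487% of all retained genes, and none had an unadjusted p of 0.05 or less. With hypoblast markers 0 were called, beside 0.601%, and only RXRA had an unadjusted permutation p of 0.05 or less, with a rho of 0.385. With the total count 0 were called, beside 0% of all genes, and 0 had an unadjusted p of 0.05 or less, while 416 of all genes did. Pearson correlation called none of the 8 with these 3 measures. Each 0 is near the share of all genes, so it is no result about the retinoid genes. CPM is also already divided by the total count. Cumulus and granulosa markers were also detected, at 23.9 to 81.0 CPM in sum, and were not set against the retinoid genes.

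**Figure D4:**
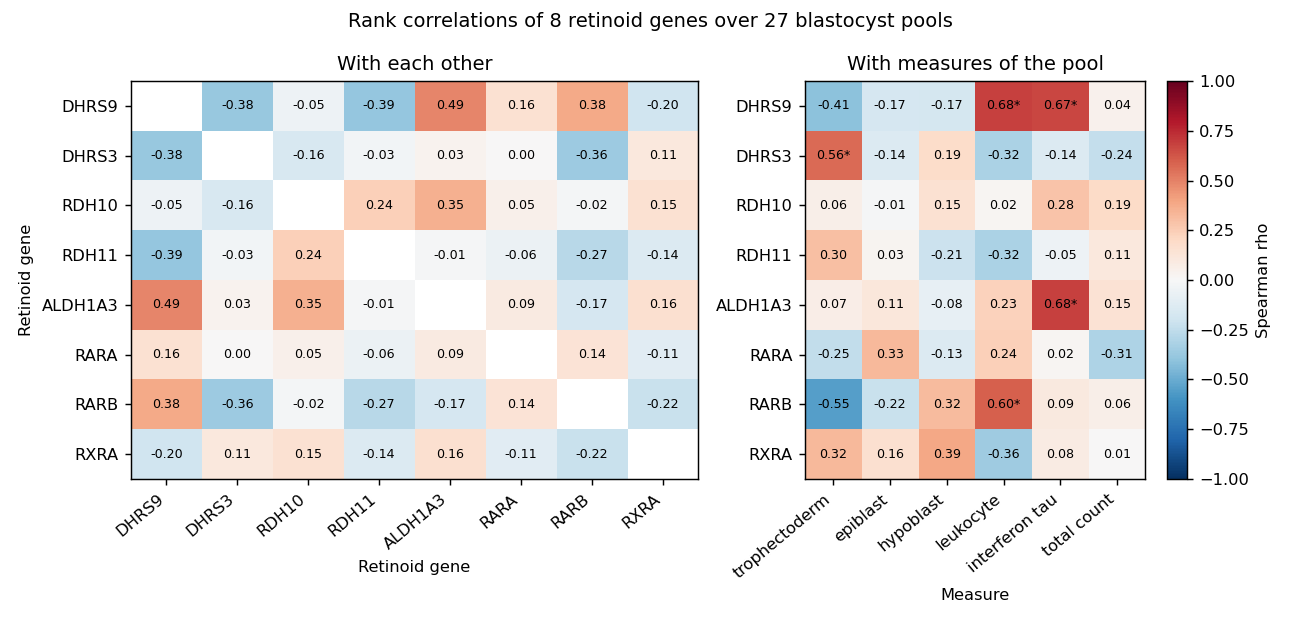
Spearman's rho over 27 blastocyst pools between the 8 retained retinoid genes (left) and between each gene and 6 measures of the pool (right), on a colour scale from -1 to 1; an asterisk marks a Benjamini-Hochberg adjusted permutation p of 0.05 or less over all retained genes. No pair of retinoid genes and 5 relations with measures carry an asterisk.

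Among the 28 pairs of retained retinoid genes, rho was positive in 13 and negative in 15. None was called by Spearman or Pearson correlation, and 2 pairs had an unadjusted permutation p of 0.05 or less. The nearest was DHRS9 with ALDH1A3, the enzymes of the consecutive oxidations (rho = 0.491, permutation p = 0.0102, lower Benjamini-Hochberg adjusted p = 0.0985). Its r was 0.489 (permutation p = 0.00991), and 0.436 without the 2 pools. The other was DHRS9 with RDH11 (rho = -0.385, permutation p = 0.0475, adjusted p = 0.232). DHRS9 with DHRS3 was just above 0.05 (rho = -0.382, permutation p = 0.0505, lower adjusted p = 0.239). So was DHRS9 with RARB (rho = 0.375, permutation p = 0.0548, lower adjusted p = 0.249). Of all genes, 0% were called with DHRS3, RDH10, RDH11 or RARA. With DHRS9, ALDH1A3, RARB and RXRA the shares were 6.51%, 0.731%, 1.99% and 0.894%. Having 0 of 28 pairs called is near these shares, so it is no result about the retinoid genes as a group.

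The genes most like DHRS9 over the 27 pools were DOCK11 (rho = 0.879), LOC107132045 (0.861), ABRACL (0.847), REG3G (0.844) and ATP6AP2 (0.831). Their Pearson's r was 0.890, 0.804, 0.839, 0.781 and 0.781, and at least 0.767 without the 2 pools. DOCK11, an activator of the GTPase CDC42, LOC107132045 and ATP6AP2, an accessory protein of the vacuolar proton pump, lie on chromosome X. DOCK11 had been named earlier together with DHRS9, so its place is no separate result. The genes most opposed were ADSL (rho = -0.825, r = -0.814), an enzyme of purine synthesis, and RPN1 (rho = -0.808, r = -0.853), a subunit of the oligosaccharyltransferase. Each of these 7 had the smallest p that the permutations can give, 1e-05, for rho and for r, with an adjusted p of 0.00246 for rho. The 7 are the extremes of all retained genes for a gene chosen from its values. Their p-values therefore only describe the ranking.

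Within the 18 pools of the high Y-linked cluster, rho with DHRS9 was 0.814 for DOCK11, 0.899 for ABRACL and -0.719 for ADSL. In the 9 low pools it was 0.467, 0.0167 and -0.783. For LOC107132045, REG3G, ATP6AP2 and RPN1, rho was 0.789, 0.806, 0.676 and -0.626 in the 18 pools. In the 9 pools it was 0.350, 0.450, 0.683 and -0.333 for these genes. ABRACL was thus near 0 in the 9 pools, and the difference between the clusters was not tested. Altogether 801 of 12309 genes were called with DHRS9 (6.51%), of which 562 were positive and 239 negative.

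The gene most like ALDH1A3 was LIPH, which encodes a phospholipase that releases lysophosphatidic acid (rho = 0.865, permutation p = 1e-05, Benjamini-Hochberg adjusted p = 0.0137, r = 0.900, and 0.844 without the 2 pools). Its rho was 0.750 in the 9 pools low in Y-linked transcripts (exact permutation p = 0.0255) and 0.884 in the 18 (permutation p = 1e-05). The gene most like RARB was LOC104968671 on chromosome X (rho = 0.815, adjusted permutation p = 0.0130, r = 0.815), and that most like RXRA was OTUD7B, a deubiquitinase (rho = 0.778, adjusted permutation p = 0.0224, r = 0.692). The call of OTUD7B was lost without pool 12, 21, 26, 32 or 33 (rho of at least 0.755). Of the 12309 genes, 90 (0.731%) were called with ALDH1A3, 245 (1.99%) with RARB and 110 (0.894%) with RXRA.

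No gene was called with DHRS3, RDH10, RDH11 or RARA by Spearman correlation, while 1580, 546, 1282 and 337 genes respectively reached an unadjusted p of 0.05. Pearson correlation called 3 genes with DHRS3 and 0 with the other 3. The gene most like DHRS3 was DXO (rho = 0.763, permutation p = 1e-05, adjusted p = 0.0615). Its p was the smallest that the permutations can give and was still not called. The 0 for DHRS3 thus depends on the number of permutations and decides nothing. The most alike were KCTD2 for RDH10 (rho = 0.684, adjusted permutation p = 0.615) and RBBP9 for RDH11 (rho = 0.739, adjusted permutation p = 0.246). For RARA it was TNFAIP6, a gene of the expanding cumulus that is also among the cumulus markers (rho = 0.627, adjusted permutation p = 1).

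Other genes of retinoid handling were taken from lists of 60 genes, of which 54 had at least 1 count and 25 were retained. Of 14 genes of transport, uptake and storage, 5 were retained. BCO2, which cleaves carotenoids, was between 95.0 and 251 CPM and DGAT1, which can esterify retinol, between 14.8 and 33.3 CPM. The retinol uptake receptor STRA6 had a median of 1.13 CPM and reached 12.2 CPM in 1 pool, and LRAT, the main retinol esterifying enzyme, had a median of 0.504 CPM and was not retained. STRA6 thus varied widely among pools of like morphology.

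Of 14 other retinol and retinal oxidoreductases, 6 were retained. The medians were 117 CPM for ADH5, 110 CPM for RDH12, 90.4 CPM for DHRS7 and 46.0 CPM for RDH14. RDH12 was between 22.7 and 266 CPM, and RDH14 only between 33.8 and 59.2 CPM. Among 3 other retinal dehydrogenases, ALDH1A1 was retained, at 0.0978 to 32.7 CPM with a median of 5.37 CPM. ALDH1A2, the main retinoic acid forming enzyme of the later embryo, had no counts in 12 pools and at most 1.64 CPM.

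Of 5 genes of retinoic acid binding and clearance, FABP5 and CRABP1 were retained. FABP5, which carries fatty acids and can carry retinoic acid, ran from 80.3 to 1634 CPM around a median of 409 CPM, and CRABP1 was between 3.68 and 28.0 CPM. The clearing enzyme CYP26A1 had a median of 0.639 CPM and no counts in 5 pools, and CYP26B1 and CYP26C1 had none in 17 and 24 pools. Of 9 retinoid X receptors and coregulators, 7 were retained, with RXRB at 2.58 to 8.93 CPM and no counts of RXRG. The coregulators NCOR1, NCOA1 and NCOA3 had medians of 106, 68.4 and 55.7 CPM. Of 15 genes known to respond to retinoic acid, 4 were retained, RARRES1, TGM2, RARRES2 and MEIS2, and HOXB1 had no counts in any pool.

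With DHRS9, 3 of these 25 genes were called, all positive, beside 6.51% of all genes. RARRES1, a retinoid-responsive carboxypeptidase inhibitor, had a rho of 0.681 (permutation p = 0.00014, Benjamini-Hochberg adjusted p = 0.00817) and an r of 0.608 (permutation p = 0.00068), or 0.598 without the 2 pools. FABP5 had a rho of 0.649 (permutation p = 0.00031, adjusted p = 0.0127) and an r of 0.672 (permutation p = 0.00012), or 0.547 without the 2 pools. CRABP1 had a rho of 0.580 (permutation p = 0.00199, adjusted p = 0.0374) and an r of 0.504 (permutation p = 0.00747), a call that was lost in 13 of 32 alternative settings, including without pool 9, 13, 15, 23, 24, 31, 36 or 41 (rho of at least 0.536).

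Within the 18 and the 9 pools, rho with DHRS9 was 0.598 and 0.233 for FABP5, 0.375 and 0.267 for RARRES1 and 0.434 and 0.0167 for CRABP1. In the 18 pools the permutation p was 0.00988 for FABP5, 0.127 for RARRES1 and 0.0737 for CRABP1. In the 9 the exact permutation p was at least 0.493. Both clusters thus gave lower values than the 27 pools together for these 3 genes.

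With ALDH1A3, 2 of the 25 were called, beside 0.731% of all genes. FABP5 rose with it (rho = 0.847, permutation p = 1e-05, Benjamini-Hochberg adjusted p = 0.0137) and kept an r of 0.786 without the 2 pools, from 0.865. DHRS7, a short-chain dehydrogenase, fell as ALDH1A3 rose (rho = -0.698, permutation p = 0.00013, adjusted p = 0.0331, r = -0.656, permutation p = 0.00041), with r of -0.626 without the 2 pools. Within the 18 pools rho was 0.891 for FABP5 and -0.820 for DHRS7 (permutation p = 1e-05 and 7e-05), and within the 9 pools 0.517 and -0.383 (exact permutation p = 0.162 and 0.313). The call of DHRS7 was lost without pool 5, 9, 14, 24, 32, 33 or 44 (rho between -0.696 and -0.662). None of the 25 was called with the other 6 retained retinoid genes. Of all genes, 1.99% were called with RARB, 0.894% with RXRA and 0% with DHRS3, RDH10, RDH11 or RARA.

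**Figure D5:**
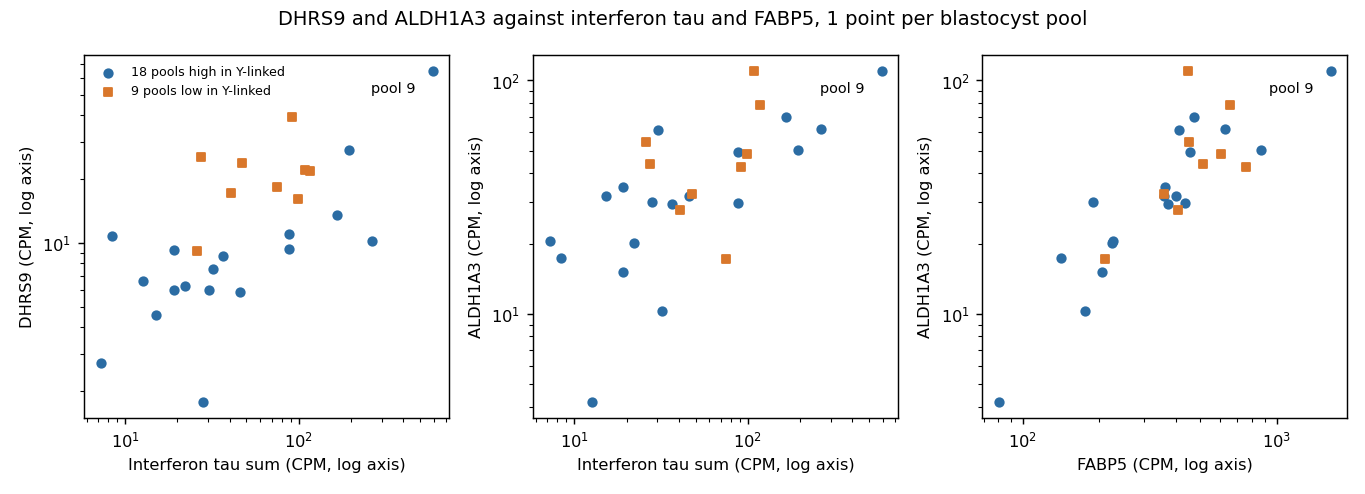
DHRS9 against summed interferon tau, ALDH1A3 against summed interferon tau, and ALDH1A3 against FABP5 (CPM, log axes), with 1 point per blastocyst pool and squares for the 9 pools low in Y-linked transcripts. Each relation is positive over the 27 pools (rho of 0.672, 0.681 and 0.847), and pool 9 is at the upper right of each.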

How the data were processed

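Whole-blastocyst RNA was amplified using a SMART-Seq v4 3′ DE Kit. The authors processed forward reads with fastp (trimming), STAR (mapping to ARS-UCD2.0) and featureCounts (counting per gene), and deposited raw counts without normalization. Tool versions, annotation release and strand setting are not given in the sources used here, so reads of antisense partners may be included. All 27 columns were matched to pools by number.

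CPM used the total count of each pool (10517606 to 44253564). Genes with 1 CPM in 12 pools were retained, as in the study. Spearman correlations were tested by 100000 permutations and adjusted by Benjamini-Hochberg over all retained genes. Within 9 pools, all permutations were enumerated. With a pool left out, p came from permuted untied ranks. The coefficient of variation came from edgeR 4.0.16 with an intercept-only design. DESeq2 1.42.0, R 4.3.3, Python 3.11.15, scipy 1.17.1, numpy 2.4.6 and pandas 2.3.3 were also used. Scripts were tested on simulated data.

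The retinoid genes, marker lists and pathway lists were chosen with earlier results of these data known. Named genes were the 10 retinoid genes, up to 4 retained genes of each pathway list with the highest medians, listed genes with a defining role, the 5 genes most like and the 2 most opposed to DHRS9, and the gene most like each other retained member. Alternatives covered normalization, the low-count filter, the kind of correlation, the pseudocount and each pool left out. Scores weighting markers equally, the leukocyte sum without CD48 and values within clusters were added after seeing the data. The follicle maturity treatments were not compared here, since the labels assign no pool to one.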

Additional observations from a re-analysis of the deposited data

How the results depend on the processing

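No paired analysis was possible because the labels of the pools give neither treatment nor replicate. The number of retinoid genes called with trophectoderm markers, 1, was 2 with TMM and with DESeq2 size factors, 0 over all genes with a count, 0 with equal-weight scores, and between 0 and 2 with each pool left out. With leukocyte markers, 2, it was 1 with TMM and with DESeq2 size factors, 0 without CD48, 0 with equal-weight scores, and between 1 and 2 with each pool left out. With interferon tau, 2, it was 1 over all genes with a count and between 0 and 2 with each pool left out. The cause was not tested, except that more genes were tested over all genes with a count. With epiblast and hypoblast markers, the total count and pairs of retinoid genes, 0 were called in each alternative. Within the Y-linked clusters 0 were called in the 5 alternatives run, and leaving pools out was not run there. The number of genes called with DHRS9, 801, was between 554 and 835 over the other alternatives and between 568 and 874 with each pool left out. Of the named relations, 12 of 20 kept their call in all alternatives, and none reversed. The retinoid genes retained were 8 at 0.5 CPM and with TMM, 6 at 2 CPM and 10 without a filter. CRABP2 and RARG have the fewest counts, and RDH10, RXRA and RARA are also imprecise.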

Other observations

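Of the 562 genes called positively with DHRS9, 561 had a chromosome and 184 of these (32.8%) lay on chromosome X, beside 446 of 12265 retained genes (3.64%). None of the 239 genes called negatively did. DHRS9 itself lies on chromosome 2. For RARB 22 of 191 positively called genes (11.5%) lay on X, for ALDH1A3 4 of 53 (7.55%), and for RXRA 0 of 65. No test was made of these shares. DHRS9 had been chosen in part for its relation to Y-linked transcripts over these same pools, so its share on X is only a description.

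In the 9 pools low in Y-linked transcripts DHRS9 ran from 9.10 to 39.4 CPM (median 21.9 CPM), and in the other 18 from 1.78 to 64.6 CPM (median 8.12 CPM). RARB was between 9.70 and 24.8 CPM in the 9 and between 1.90 and 25.4 CPM in the 18, with medians of 17.8 and 9.74 CPM. ALDH1A3 was between 17.2 and 109.6 CPM in the 9 and between 4.21 and 109.7 CPM in the 18, with medians of 43.7 and 31.1 CPM. The values overlapped for all 3 genes. The clusters were defined from the data and were not compared by a test. Within the 18 pools 0 of the 8 retained retinoid genes were called against the Y-linked sum, beside 0% of all genes. ALDH1A3 had a rho of -0.641 there (permutation p = 0.00518, Benjamini-Hochberg adjusted p = 0.396) and an r of -0.759 (permutation p = 0.00029). Within the 9 pools 0 were also called, beside 0% of all genes. The 362880 orders of 9 pools are too few for a single gene to be called alone by Spearman correlation over 12310 genes. This 0 therefore decides nothing about the retinoid genes.

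Pool 9 combined the highest DHRS9, ALDH1A3, interferon tau and FABP5 with the lowest summed hypoblast markers, 50.1 CPM beside a median of 256 CPM over all pools.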
